A study of Sus scrofa with 4 samples.

Results

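The 10 genes described here move water, ions or protons across cell membranes, or regulate the pumps doing so, and were followed through the single-cell RNA of the early pig embryo and of the endometrium that receives it. They were chosen by symbol: the water channels AQP1, AQP3 and AQP5, the sodium pump regulators FXYD3 and FXYD4, the ion carriers SLC12A2 and SLC26A3, the proton pump subunit ATP6V1G3, and the ion channels CFTR and SCNN1A. All 10 were found among the 21280 genes of the count tables, 8 by the symbol in the tables and 2, AQP1 and FXYD3, only by the gene identifier that a reference table pairs with that symbol. The rule takes rows by symbol, but the genes were chosen with earlier results of these data known. Counts of them past 2-fold, set beside the share of all genes, are therefore descriptions.

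The study sampled pig (Sus scrofa) embryos and endometrium at 2 stages of pregnancy, day 9 and day 12, giving 4 libraries, 2 of embryo and 2 of endometrium. Each group was 1 library, and the labels give no breed, no treatment and no number of animals behind a library. There was therefore no test between days, and every interval below is a 95% interval for counting error alone, which leaves out the variation between animals.

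An early blastocyst is a fluid-filled sphere: the trophectoderm, its outer epithelium, pumps sodium into the cavity and water follows through aquaporins. The hypoblast lines the cavity and goes on to form the yolk sac, an absorptive and secretory epithelium. On the maternal side, luminal and glandular epithelia secrete and absorb the uterine fluid in which the conceptus floats, with chloride leaving through CFTR and sodium entering through the epithelial sodium channel.

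Counts were of UMIs, the molecular tags that mark single captured RNA molecules. The 4 libraries held 7000, 6671, 7984 and 8962 cells after filtering (the embryo of day 9 and of day 12, then the endometrium of day 9 and of day 12), with a median of 11883.5, 9297, 2639 and 2233 UMIs per cell. Pairs of libraries shared 54 to 105 cell barcodes, 0.676% to 1.32% of a library's cells. Cells were clustered within each library without the 10 genes or any listed transport gene among the clustering genes, and clusters were named by marker genes as "like" a cell type. A level is given in CPM, the UMIs of a gene divided by all UMIs of a class in a library, scaled to the usual CPM total.

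All 14 matched trophectoderm markers were detected in trophectoderm-like cells on both days, at a summed 60667 and 22579 CPM, against 3036 and 6184 CPM in hypoblast-like cells. All 14 were detected in hypoblast-like cells too. The 12 matched epithelial markers stood at a summed 4231 and 5902 CPM in endometrial epithelial-like cells on days 9 and 12. In stromal-like cells, where all 12 were also detected, they stood at 277 and 72.0 CPM. These markers also named the clusters, so the sums describe the classes and do not test the names. Epithelial-like cells also held the 14 stromal markers, at 6945 CPM on day 9 and at 8313 CPM on day 12. Stromal-like cells held these at 50870 and 63782 CPM. The stromal markers were highest in day 9 cluster 15 (107 cells, 28543 CPM) and day 12 cluster 16 (65 cells, 26835 CPM), whereas the other epithelial-like clusters stood between 2931 and 6165 CPM. Different clusters hold each class on the 2 days, since each library was clustered alone: trophectoderm-like cells were cluster 5 on day 9 and clusters 1, 3, 6 and 10 on day 12, hypoblast-like cells were day 9 clusters 1, 2, 3, 4, 6 and 8 and day 12 clusters 2, 4 and 9, and epithelial-like cells were clusters 12 to 15 on day 9 and 14, 15, 16, 18, 19 and 20 on day 12.

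**Figure D1:**
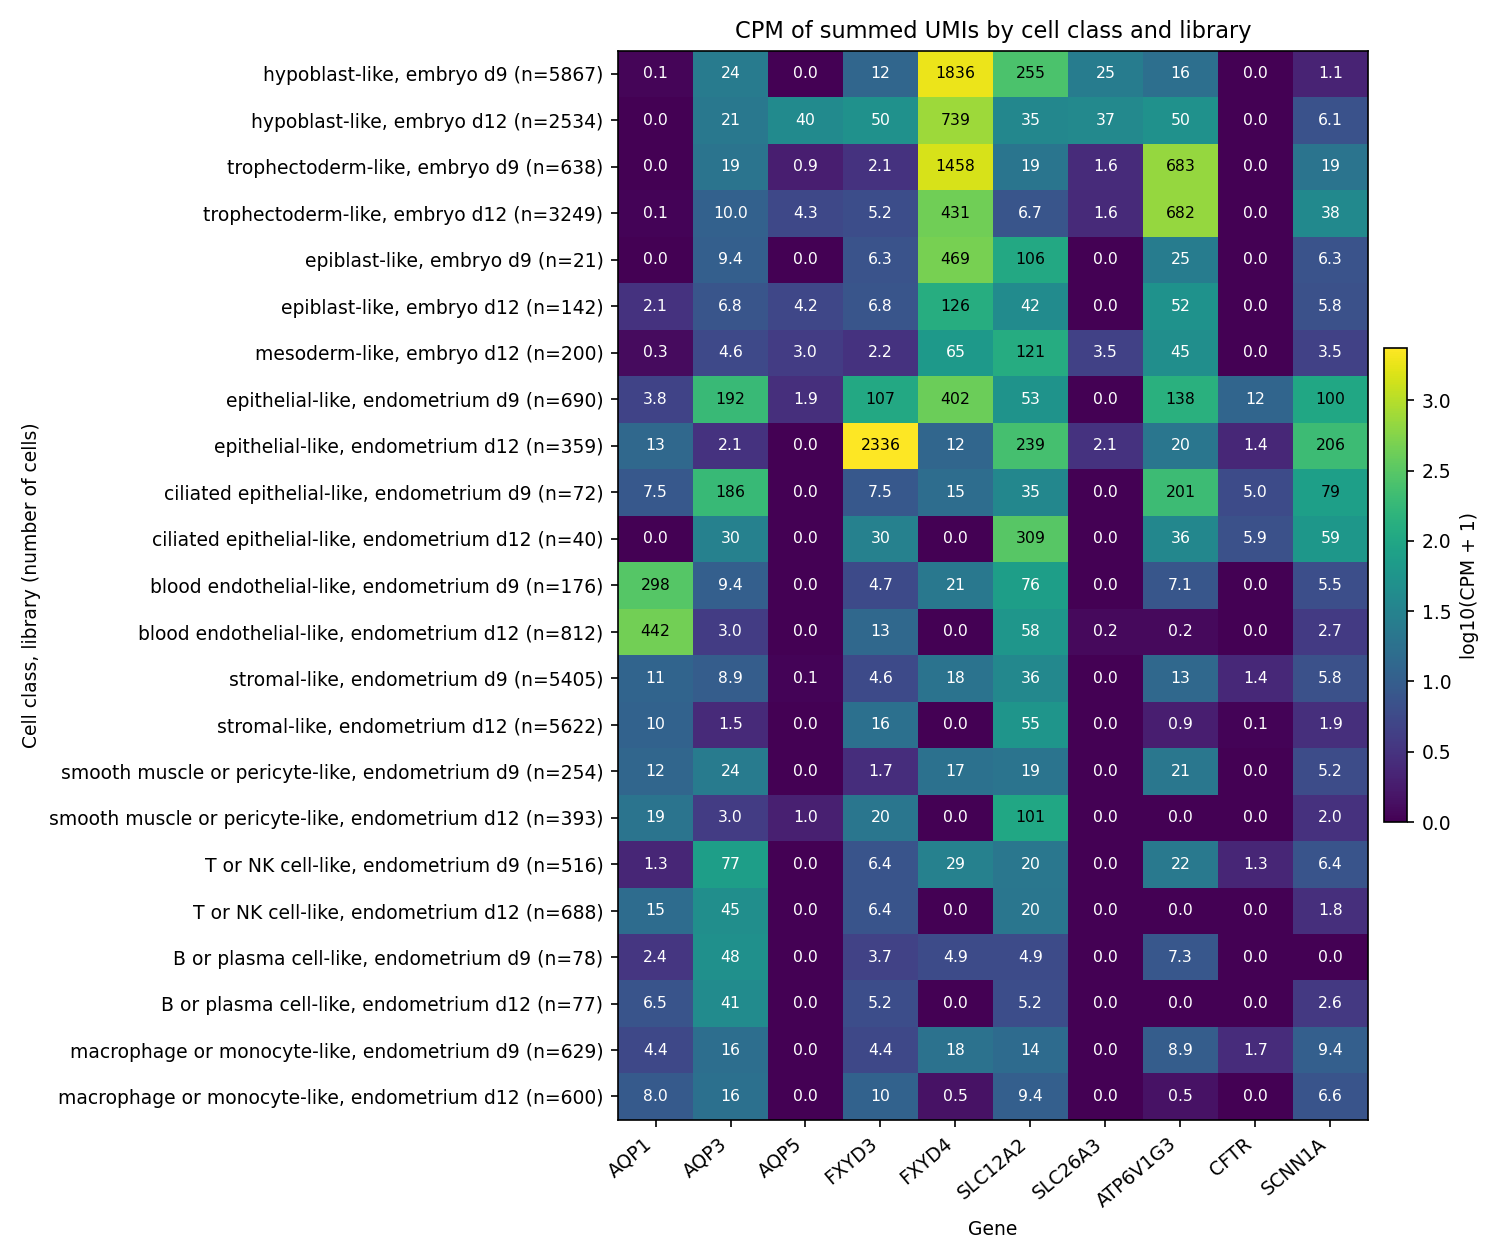
Levels of the 10 genes (columns) in each named cell class of each library (rows, with the number of cells). Each cell prints the CPM of the summed UMIs and its colour is log10(CPM + 1); FXYD4 is highest in day 9 hypoblast-like cells at 1836 CPM, ATP6V1G3 in trophectoderm-like cells, AQP1 in blood endothelial-like cells, and FXYD3 reaches 2336 CPM in the day 12 epithelial-like cells.

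AQP3, an aquaglyceroporin that carries glycerol as well as water, was high in the uterine epithelium of day 9 and near 0 there on day 12. The gene (ENSSSCG00000040513, RefSeq Sscrofa11.1 chromosome 10, 33045374 to 33050285) stood at 192 CPM in epithelial-like cells on day 9 (interval 179 to 206, 818 UMIs) and at 2.09 CPM on day 12 (0.432 to 6.12, 3 UMIs). The day 12 level was 91.8-fold lower (31.3 to 446). In hypoblast-like cells of the embryo the gene stood at 24.0 CPM on day 9 and at 21.3 CPM on day 12. In trophectoderm-like cells it stood at 18.8 and 9.98 CPM, 1.89-fold lower (1.45 to 2.42). Near-empty droplets of the day 9 embryo, which carry free RNA, held it at 21.5 CPM (14.4 to 30.9).

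Within the day 9 epithelium AQP3 was unevenly spread. Cluster 13 (144 cells), led by CCL28, SPDEF and CREB3L4, was highest at 643 CPM (578 to 712). Cluster 14 (121 cells), also with CCL28 among its leading genes, stood at 231 CPM, the ciliated epithelial-like cluster 16 (72 cells) at 186 CPM and cluster 12 (318 cells) at only 12.9 CPM. On day 12 no epithelial-like cluster held more than 1 UMI, and the 40 ciliated epithelial-like cells stood at 29.7 CPM (9.64 to 69.3, 5 UMIs). Different clusters hold the class on the 2 days, so a change in which epithelial cells were captured and a change within a cell cannot be told apart.

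AQP3 was also present in lymphocytes, where it did not follow the epithelium. T or NK cell-like cells stood at 76.8 CPM on day 9 and at 45.1 CPM on day 12, and the class of B or plasma cells at 47.5 and 41.3 CPM. Both differences were within 2-fold, and the log2 ratio in T or NK cell-like cells became -0.09 when only cells with 2000 UMIs or more were kept. In the order of AQP3 levels, day 9 epithelial-like and ciliated cells came first and did not differ beyond their intervals, day 9 T or NK cell-like cells came next, below both, and every class further down overlapped its neighbour.

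After each cell was thinned at random to 1000 UMIs, to put cells of different depth on one footing, 12.3% of day 9 epithelial-like cells held an AQP3 UMI (9.96% at the lower bound; 31.0% without thinning). The share was 8.33% in day 9 T or NK cell-like cells. Stromal-like cells, which should lack the gene, stood at 8.94 CPM on day 9, where 2.52% of cells held a UMI without thinning. The median depth was 2649 UMIs in stromal-like and 4391 in epithelial-like cells.

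AQP1, the water channel of capillary endothelium (ENSSSCG00000033190, chromosome 18, 42063482 to 42076741), was high in 1 class. Blood endothelial-like cells stood at 298 CPM on day 9 (269 to 330) and at 442 CPM on day 12 (423 to 462), a 1.48-fold difference (1.33 to 1.66). No other class of either tissue reached 20 CPM: stromal-like cells stood at 11.1 and 10.5 CPM, and the embryo held 9 AQP1 UMIs among all kept cells on day 9 and 7 on day 12. After thinning, 20.5% of day 9 and 24.8% of day 12 blood endothelial-like cells held a UMI, against 51.7% and 45.0% without thinning.

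AQP5, a water channel of secretory epithelia (ENSSSCG00000000211, chromosome 5, 15876527 to 15879608), was found mainly in the day 12 hypoblast. Hypoblast-like cells held 2 UMIs on day 9, or 0.0267 CPM, and 1165 UMIs on day 12, or 40.3 CPM (38.1 to 42.7). The ratio was 1511 (417 to 12491), with 2 UMIs behind its day 9 side. On day 12 the gene stood at 44.4 and 34.6 CPM in hypoblast-like clusters 2 and 4 and at 2.93 CPM in cluster 9 (92 cells), whose leading genes include TTR, FGB and AHSG. Trophectoderm-like cells stood at 0.929 and 4.34 CPM, and the endometrium was at or near 0, with 8 UMIs in day 9 epithelial-like cells and 0 on day 12.

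Among the other aquaporins, AQP8 appeared in the day 12 epithelium and AQP11 was lower there. AQP8 had 0 UMIs in day 9 epithelial-like cells and 43 on day 12, or 30.0 CPM (21.7 to 40.4), of which cluster 14 held 29. AQP11, an intracellular aquaporin, stood at 60.1 CPM on day 9 and at 18.8 CPM on day 12, 3.19-fold lower. Of the 11 matched aquaporin genes, members included, 4 reached 10 CPM in this class, 2 of them higher and 2 lower, where 11.2% of all genes were higher and 13.8% lower.

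FXYD proteins are single-span partners of the sodium pump that tune its affinity and speed. FXYD4, known as the channel-inducing factor CHIF of the renal collecting duct and colon (ENSSSCG00000044108, chromosome 14, 61633355 to 61637733), was found in every embryo class. Hypoblast-like cells stood at 1836 CPM on day 9 and at 739 CPM on day 12, 2.49-fold lower (2.45 to 2.52). Trophectoderm-like cells stood at 1458 and 431 CPM, 3.38-fold lower (3.28 to 3.49). Epiblast-like cells were at 469 CPM on day 9 (21 cells) and at 126 CPM on day 12, and day 12 mesoderm-like cells were lowest at 65.2 CPM.

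The near-empty droplets of the day 9 embryo, barcodes with 1 to 100 UMIs that carry free RNA, held FXYD4 at 1715 CPM (1645 to 1786). All kept cells of that library stood at 1829 CPM, and the part of free RNA in its class levels was not tested. The 3 other libraries were deposited with at least 500 UMIs in every barcode, and no such droplets could be read there. After thinning, 82.0% of day 9 hypoblast-like cells and 50.2% on day 12 held a FXYD4 UMI, and 73.7% and 35.3% of trophectoderm-like cells (97.2% of day 12 hypoblast-like and 88.1% of day 12 trophectoderm-like cells without thinning).

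In the uterine epithelium FXYD4 and FXYD3 stood in opposite order on the 2 days. FXYD4 was at 402 CPM on day 9 (383 to 422) and at 11.9 CPM on day 12 (6.91 to 19.0), 33.9-fold lower (21.1 to 58.3). FXYD3, a FXYD protein known from mammary and gastric epithelium and their tumours (ENSSSCG00000024666, chromosome 6, 44647771 to 44654377), was at 107 CPM on day 9 (97.5 to 117) and at 2336 CPM on day 12 (2257 to 2416), 21.8-fold higher (19.8 to 24.1).

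The clusters resolved this further. On day 9 both genes were highest in cluster 12 (318 cells, RAB26 and CLDN8 among its leading genes), FXYD4 at 990 CPM and FXYD3 at 261 CPM. The AQP3-high clusters 13 and 14 held FXYD4 at 21.1 and 18.8 CPM and FXYD3 at 3.51 and 11.3 CPM. On day 12 FXYD3 stood at 3625, 2509, 1471, 1459 and 2753 CPM in clusters 14, 15, 16, 19 and 20, and at 197 CPM in cluster 18. FXYD4 did not exceed 21.8 CPM in any of these 6. FXYD3 was therefore higher in 5 of the 6 day 12 clusters than in any day 9 cluster, and the interval of cluster 18 (125 to 296) overlapped that of day 9 cluster 12 (236 to 287). At 1000 UMIs per cell, 11.6% of epithelial-like cells held a FXYD3 UMI on day 9 and 75.8% on day 12 (34.1% and 84.1% without thinning).

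**Figure D2:**
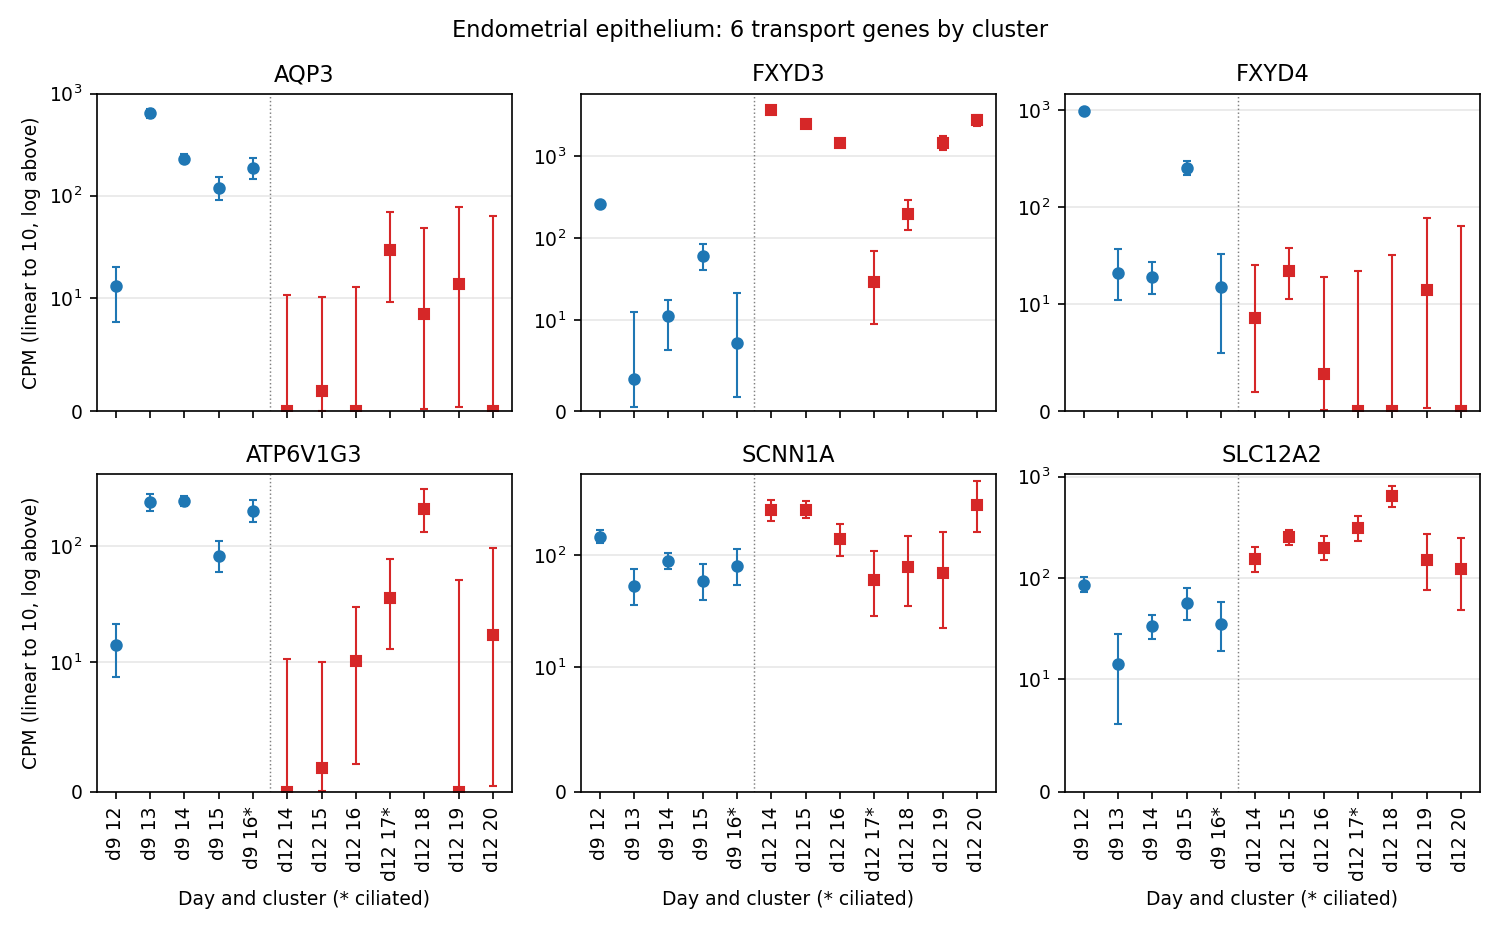
CPM of 6 of the genes in each epithelial cluster of the endometrium (blue circles day 9, red squares day 12, asterisk ciliated), with the 95% Poisson interval of the count; the scale is linear to 10 CPM and logarithmic above. AQP3 and ATP6V1G3 are high in day 9 clusters 13, 14 and 16, FXYD4 in day 9 cluster 12, and FXYD3 in 5 day 12 clusters between 1459 and 3625 CPM.

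FXYD3 and FXYD4 also differed in the embryo. FXYD3 stood at 11.8 CPM on day 9 and at 49.7 CPM on day 12 in hypoblast-like cells, 4.20-fold higher (3.86 to 4.58), and at 2.09 and 5.22 CPM in trophectoderm-like cells. The near-empty droplets of the day 9 embryo held FXYD3 at 20.8 CPM (13.8 to 30.0), above the hypoblast-like level of that day. A small day 12 embryo cluster without a name (cluster 11, 20 cells) held it at 1472 CPM.

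Outside the epithelium, day 9 and day 12 endometrial libraries differed in a low level of FXYD4. On day 9 every other endometrial class stood between 4.88 and 29.4 CPM, with 284 UMIs in stromal-like cells. On day 12 the 1 UMI outside epithelial-like cells was in macrophage or monocyte-like cells, and stromal-like cells held 0, at least 81.4-fold lower than on day 9 against a floor of 3 UMIs (65.8-fold at the lower limit of the counting interval). ATP6V1G3 stood at 7.08 to 21.8 CPM in the classes that are not epithelial on day 9 and at 0 to 0.897 CPM on day 12. Both genes were also lower in the epithelial-like cells of day 12, and the part of free RNA in the other classes was not tested.

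Co-detection was counted cell by cell. Of the 690 day 9 epithelial-like cells, thinned to 1000 UMIs, 85 held AQP3 and 191 held FXYD4. Both were held by 1 cell, where the product of the 2 shares gives 23.5 cells. Within clusters 12, 13, 14 and 15 the pair met in 0, 0, 1 and 0 cells. The products there give only 1.63, 0.639, 0.992 and 0.673, so the gap is mainly one between clusters. AQP3 and ATP6V1G3 met in 16 cells, where the product gives 8.62. Within clusters 13 and 14 they met in 11 and 5 cells, where the products give 12.8 and 4.96. FXYD3 and FXYD4 met in 39 cells against 22.1, which is 48.8% of the FXYD3 cells and 20.4% of the FXYD4 cells. Within cluster 12 alone, FXYD3 and FXYD4 met in 39 cells where the product gives 37.5. Without thinning, AQP3 and FXYD4 met in 34 cells against 107. Within clusters 12, 13, 14 and 15 they then met in 11, 7, 13 and 3 cells, where the products give 12.8, 7.5, 15.6 and 8.17.

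ATP1B1, the sodium pump subunit that brings the pump to the membrane, was compared at the level of classes. It stood at 364 CPM in epithelial-like cells on day 9 and at 130 CPM on day 12, 2.79-fold lower.

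In trophectoderm-like cells ATP1B1 had the other order, with 2 UMIs on day 9 and 1103 on day 12, at 0.465 and 38.9 CPM. Hypoblast-like cells held it at 3.48 and 6.30 CPM. The trophectoderm-like comparison carries a wide background: 28.8% of the 6323 genes at 10 CPM or more on a day were higher by 2-fold or more and 11.3% lower.

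SLC12A2, the basolateral sodium-potassium-chloride cotransporter NKCC1 that loads secretory cells with chloride (ENSSSCG00000014255, chromosome 2, 131016430 to 131109307), went in opposite directions in embryo and uterus. Hypoblast-like cells stood at 255 CPM on day 9 (252 to 259) and at 35.1 CPM on day 12 (33.0 to 37.3), 7.28-fold lower (6.83 to 7.76). Trophectoderm-like cells stood at 19.3 and 6.66 CPM, 2.89-fold lower (2.21 to 3.76), a log2 ratio of -1.40 that became -3.01 when both embryo libraries were clustered together and -2.91 when day 9 barcodes down to 1000 UMIs were kept. Uterine epithelial-like cells stood at 52.9 CPM on day 9 (46.2 to 60.2) and at 239 CPM on day 12 (215 to 266), 4.53-fold higher (3.82 to 5.38).

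Every day 12 epithelial-like or ciliated cluster, at 121 to 644 CPM, stood above every day 9 one, at 14.0 to 86.0 CPM, though the intervals of the small clusters 19 and 20 overlapped that of day 9 cluster 12. Cluster 18 was highest at 644 CPM (506 to 807, 36 cells, ACP5 and UABP-2 among its leading genes). Uteroferrin is encoded by ACP5 and is a known product of pig uterine glands. In the embryo, all 6 day 9 hypoblast-like clusters stood between 209 and 317 CPM and all 3 day 12 ones between 20.5 and 37.5 CPM, so the 2 days did not overlap. Mesoderm-like cells of day 12 were at 121 CPM. The near-empty droplets of the day 9 embryo held SLC12A2 at 156 CPM, above the trophectoderm-like level there.

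Smooth muscle or pericyte-like cells also held more SLC12A2 on day 12, at 18.9 and 101 CPM, but the log2 ratio of 2.36 became 1.08 without day 12 cluster 8. That cluster was named on 3 of 12 markers, and a day 9 cluster with like leading genes (A2M, EDNRB, HIGD1B) was named stromal-like. Stromal-like cells stood at 36.0 and 55.2 CPM and blood endothelial-like cells at 75.5 and 57.6 CPM, both within 2-fold.

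SLC26A3, the apical chloride-bicarbonate exchanger mutated in congenital chloride diarrhoea (ENSSSCG00000021813, chromosome 9, 107480629 to 107518771), was highest in hypoblast-like cells. Hypoblast-like cells stood at 24.8 CPM on day 9 (23.7 to 25.9) and at 37.0 CPM on day 12 (34.8 to 39.3), a 1.49-fold difference. The near-empty droplets of the day 9 embryo held it at 25.2 CPM (17.5 to 35.3), and the part of free RNA in the class level was not tested. Trophectoderm-like cells stood at 1.63 and 1.55 CPM, epiblast-like cells held 0 UMIs on both days, and the endometrial classes held 0 to 3 UMIs. Among day 9 hypoblast-like clusters it ranged from 10.2 CPM in cluster 3 to 42.6 CPM in cluster 8, and on day 12 from 2.93 CPM in cluster 9 to 44.2 CPM in cluster 2. Cluster 9 was thus low in both SLC26A3 and AQP5 and high in AQP3 (70.3 CPM) and FXYD4 (1284 CPM) among the hypoblast-like clusters of day 12.

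**Figure D3:**
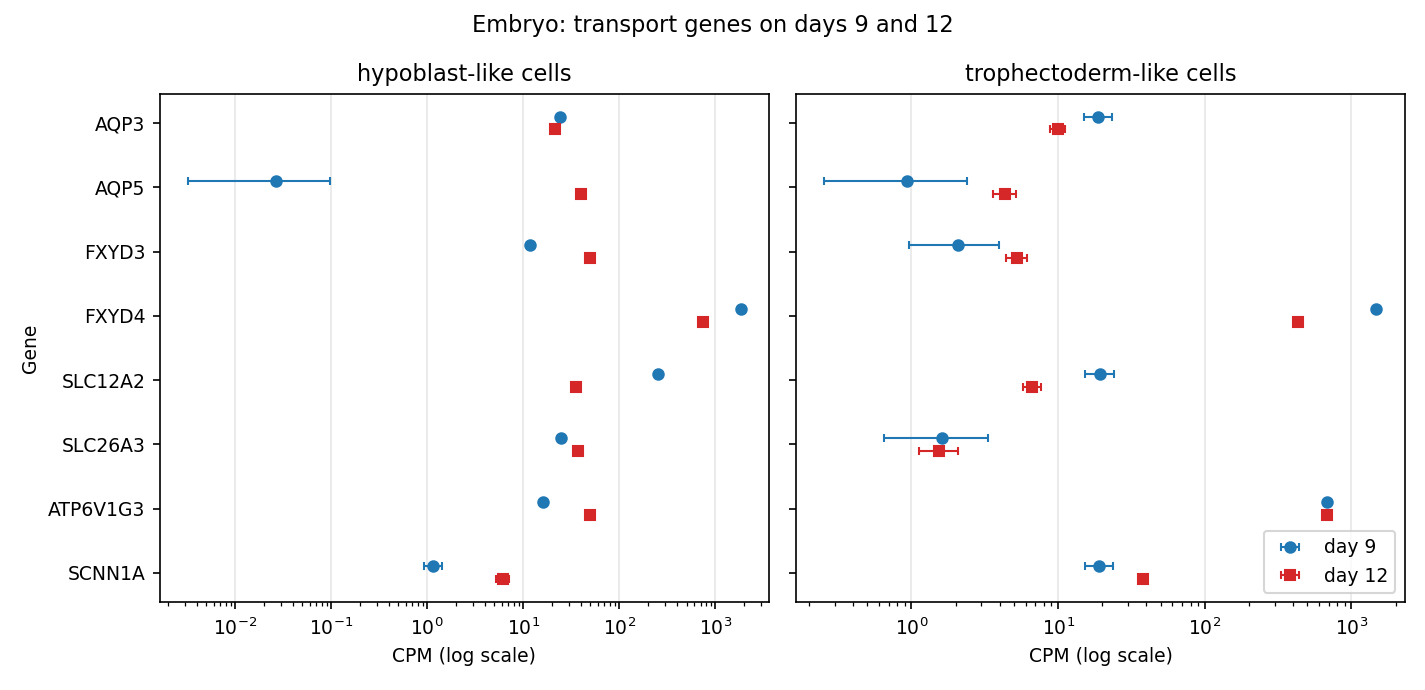
CPM (log scale) of 8 genes in hypoblast-like (left) and trophectoderm-like (right) cells of the embryo on day 9 (blue circles) and day 12 (red squares), with the 95% Poisson interval of the count. In hypoblast-like cells AQP5, FXYD3 and ATP6V1G3 are higher and FXYD4 and SLC12A2 lower on day 12; in trophectoderm-like cells ATP6V1G3 stands at 683 and 682 CPM.

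Of the 10 genes, 7 reached 10 CPM on a day in hypoblast-like cells. Of these, 3 were higher by 2-fold or more on day 12 (AQP5, FXYD3 and ATP6V1G3) and 2 lower (FXYD4 and SLC12A2), where 11.1% of all 6764 genes at that level were higher and 9% lower. In trophectoderm-like cells 5 reached 10 CPM, none was higher and 2 were lower (FXYD4 and SLC12A2), beside the 28.8% and 11.3% of all genes. SCNN1A stood there at 19.1 and 38.1 CPM, a ratio with an interval of 1.60 to 2.54. With the 1 CPM added that the count uses, its log2 ratio was 0.96, just under the 2-fold limit, and it passed the limit under 6 of the alternatives that move it, with 1.25 under scaling by median of ratios. The median log2 ratio of well expressed genes was -0.29 in trophectoderm-like and -0.16 in hypoblast-like cells, a shift that such scaling removes. Over all the genes counted the medians were 0.21 and -0.18. The trophectoderm-like median of the counted genes was thus already positive, and such scaling raises it further. The software versions in the headers differ between the 2 embryo libraries, and that difference cannot be told apart from the day.

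ATP6V1G3 encodes a tissue-restricted stalk subunit of the vacuolar proton pump, known from the acid-secreting intercalated cells of the kidney (ENSSSCG00000036270, chromosome 10, 21371302 to 21394817). It was high in trophectoderm-like cells on both days. Trophectoderm-like cells stood at 683 CPM on day 9 (659 to 708, 2941 UMIs) and at 682 CPM on day 12 (672 to 692, 19338 UMIs). Hypoblast-like cells stood at 15.9 and 49.9 CPM, so that the trophectoderm-like level was 43.0-fold higher on day 9 (40.2 to 46.1) and 13.7-fold higher on day 12.

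The day 9 near-empty droplets held it at 69.7 CPM (56.4 to 85.4), above the hypoblast-like level of 15.9 CPM and below the trophectoderm-like level. A UMI was found in 96.1% of trophectoderm-like cells on day 9 and 95.2% on day 12. After thinning the shares were 45.9% and 51.1%, against 1.74% and 4.85% of hypoblast-like cells. Among the 4 trophectoderm-like clusters of day 12 the level ran from 564 CPM in cluster 1 to 1113 CPM in cluster 3 (1113 cells, median 3850 UMIs, mitochondrial ND genes among its leading genes). Without cluster 3 the log2 day ratio moved from near 0 to -0.24.

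The subunits of the pump, ATP6V1G3 included, were compared between the 2 embryo classes from a list, with 1 CPM added to both levels. Of the 15 that reached 10 CPM on day 9, 6, ATP6V1G3 among them, were higher by 2-fold or more in trophectoderm-like cells and 3 lower, where 9.34% of all genes were higher and 34.3% lower. On day 12 it was 5 higher, again with ATP6V1G3, and 2 lower of 15, where 11.2% of all genes were higher and 15.8% lower. ATP6V1C1, a subunit of the regulatory C position, was 4.79-fold higher on day 9 (137 and 28.7 CPM) and ATP6V0D1, of the membrane sector, 4.42-fold (312 and 70.5 CPM). ATP6V1B2, a catalytic-ring subunit, was 2.93-fold higher (332 and 113 CPM). The ubiquitous stalk subunit ATP6V1G1 was 1.88-fold higher. The 3 lower on day 9 were ATP6V0A1 (4.88 and 26.8 CPM), ATP6V0A2 (4.88 and 18.8 CPM) and ATP6V1C2 (5.58 and 15.03 CPM). On day 12 ATP6V1C1 was 4.16-fold, ATP6V0D1 2.60-fold, ATP6V1B2 2.60-fold and ATP6V1G1 1.34-fold higher. The 2 lower on day 12 were ATP6V0A1 (3.88 and 10.6 CPM) and ATP6V0D2 (2.08 and 17.4 CPM).

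Markers of ionocytes and intercalated cells, ATP6V1G3 included, were taken from a list. Of the 2 at 10 CPM on day 9, 1 was higher in trophectoderm-like cells and 1 lower, and of the 4 on day 12, 3 were higher and 1 lower, beside the same shares of all genes as for the pump. ATP6V1B1 had 0 UMIs in trophectoderm-like cells of both days, and ATP6V0D2 and ATP6V1C2 were lower there than in hypoblast-like cells on both days. ATP6V0A4 was higher in trophectoderm-like cells, at 2.32 and 0.174 CPM on day 9 and 6.88 and 0.554 CPM on day 12, both low levels. FOXI1, the transcription factor that defines ionocytes and intercalated cells, had 0 UMIs in both classes on both days, as did BSND. The anion exchanger gene SLC26A4 was at 17.1 CPM in trophectoderm-like and 3.43 CPM in hypoblast-like cells on day 12, and on day 9 at 0 UMIs and 0.774 CPM. The transcription factor gene TFCP2L1 was at 14.2 and 6.23 CPM on day 12, 2.28-fold higher in trophectoderm-like cells, and at 1.16 and 6.82 CPM on day 9.

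**Figure D4:**
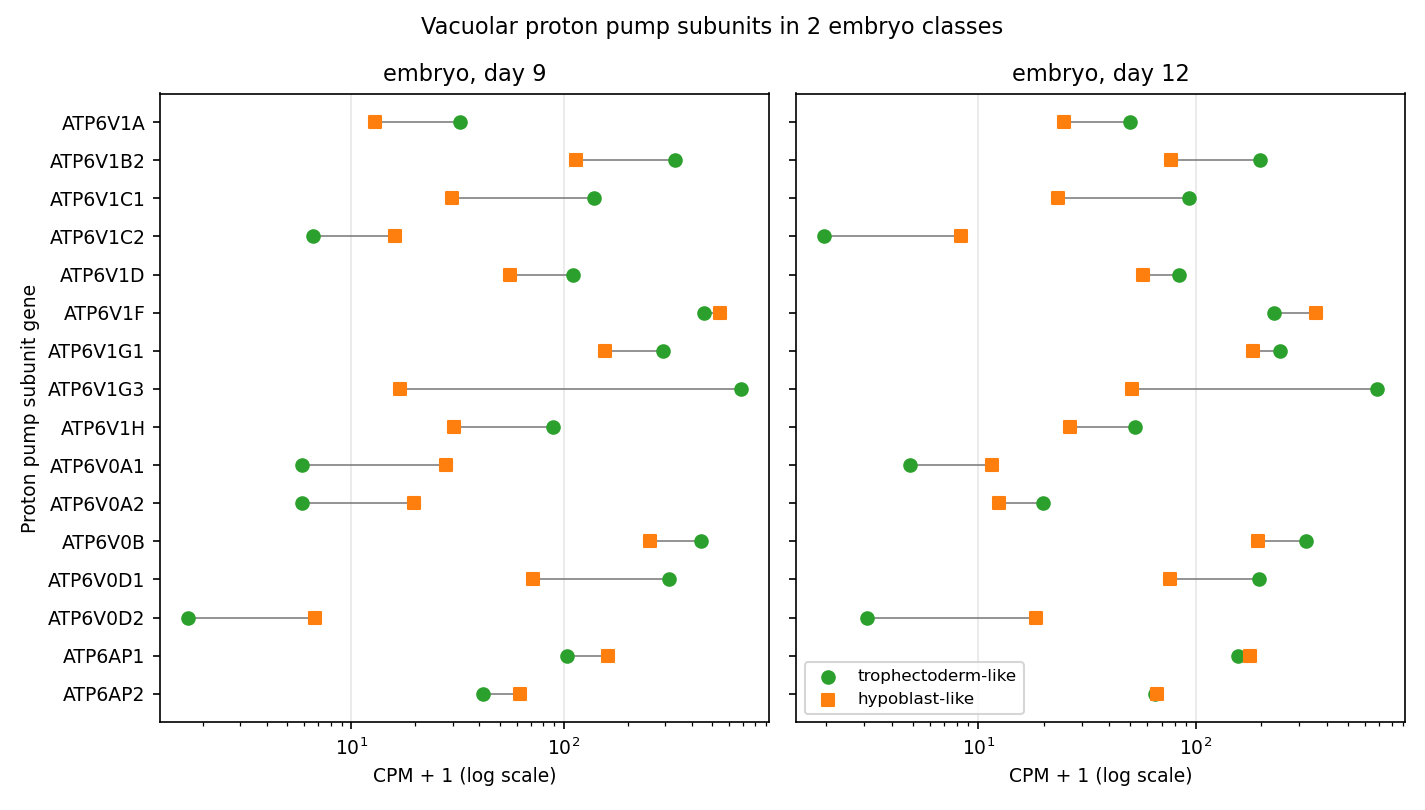
CPM + 1 (log scale) of the vacuolar proton pump subunit genes that reach 10 CPM in a class, in trophectoderm-like (green circles) and hypoblast-like (orange squares) cells on day 9 (left) and day 12 (right); a line joins the 2 classes. The widest gap on both days is that of ATP6V1G3, at 683 against 15.9 CPM on day 9 and 682 against 49.9 CPM on day 12.

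In the uterus, ATP6V1G3 stood at 138 CPM in epithelial-like cells on day 9 (127 to 150) and 20.2 CPM on day 12 (13.6 to 29.1), 6.83-fold lower (4.70 to 10.3). The log2 ratio of -2.71 became -4.83 when only cells with 2000 UMIs or more were kept. On day 9, clusters 13, 14 and the ciliated 16 stood at 237, 243 and 201 CPM, with overlapping intervals, and cluster 12 at 14.2 CPM. On day 12 cluster 18 stood at 206 CPM (132 to 306, 24 UMIs) and held 24 of the 29 UMIs of the class, in 36 cells. That cluster, whose AQP3 count was 1, thus overlapped day 9 clusters 13 and 14 in ATP6V1G3 and not in AQP3.

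ATP6V0D2, another restricted subunit, was likewise 4.77-fold lower in epithelial-like cells (93.3 and 19.5 CPM), with 184 and 111 CPM in day 9 clusters 13 and 14 and 62.1 CPM in cluster 12. ATP6V1C2 had the other order on day 9, at 331 CPM in cluster 12 and 15.8 and 15.1 CPM in clusters 13 and 14. HEPACAM2, an intercalated cell marker, was at 20.2 CPM on day 9 and at 4.19 CPM on day 12, and TFCP2L1 at 9.87 and 32.8 CPM. Of the ionocyte list, 6 genes reached 10 CPM in this class, 2 higher and 3 lower, where 11.2% of all genes were higher and 13.8% lower.

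SCNN1A encodes the alpha subunit of the epithelial sodium channel, the rate-limiting entry step of sodium absorption (ENSSSCG00000000707, chromosome 5, 64287529 to 64312917). Uterine epithelial-like cells stood at 100.3 CPM on day 9 (91.0 to 110.3) and at 206 CPM on day 12 (183 to 231), 2.05-fold higher (1.76 to 2.39). On day 9 cluster 12 was highest at 145 CPM, and on day 12 clusters 14, 15 and 20 stood at 249, 253 and 277 CPM. In the embryo, trophectoderm-like cells stood at 19.1 and 38.1 CPM. Hypoblast-like cells stood at 1.15 and 6.13 CPM, 5.34-fold higher (4.10 to 6.99).

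Of hypoblast-like, trophectoderm-like and uterine epithelial-like cells, day 12 hypoblast-like cells held the most of the beta and gamma subunits. Like SCNN1A, both stood higher on day 12 in all of these classes. In hypoblast-like cells SCNN1B stood at 2.87 CPM on day 9 and at 66.1 CPM on day 12, 23.0-fold higher, and SCNN1G at 5.55 and 41.2 CPM, 7.41-fold higher (6.62 to 8.31). Trophectoderm-like cells held SCNN1B at 8.36 and 26.8 CPM and SCNN1G at 4.41 and 6.98 CPM. In uterine epithelial-like cells SCNN1B was at 8.46 and 19.5 CPM and SCNN1G at 4.46 and 6.28 CPM. SCNN1B was also found in stromal-like cells, at 5.27 and 27.2 CPM.

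The channel's subunits and regulators, SCNN1A included, formed a list of 14, of which 13 matched. In hypoblast-like cells 9 reached 10 CPM, 4 were higher and none lower, with a median log2 ratio of 0.78 against -0.18 over all genes, of which 11.1% were higher and 9% lower. SCNN1B and SCNN1G were among the 4. In trophectoderm-like cells 9 reached 10 CPM, 5 were higher and none lower, with a median of 1.33 against 0.21 over all genes. There 28.8% of all genes were higher and 11.3% lower. In epithelial-like cells 11 reached 10 CPM, 6 were higher and 1 lower, SCNN1A among the higher, with a median of 1.01 against -0.15 over all genes, of which 11.2% were higher and 13.8% lower. NEDD4L, the ligase that removes the channel from the membrane, was the lower one, at 161 and 39.1 CPM, and on day 9 was highest in cluster 13 at 395 CPM. ST14, a membrane protease of the channel-activating cascade, stood at 36.9 and 179 CPM, and its inhibitor SPINT1 at 38.3 and 128 CPM.

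**Figure D5:**
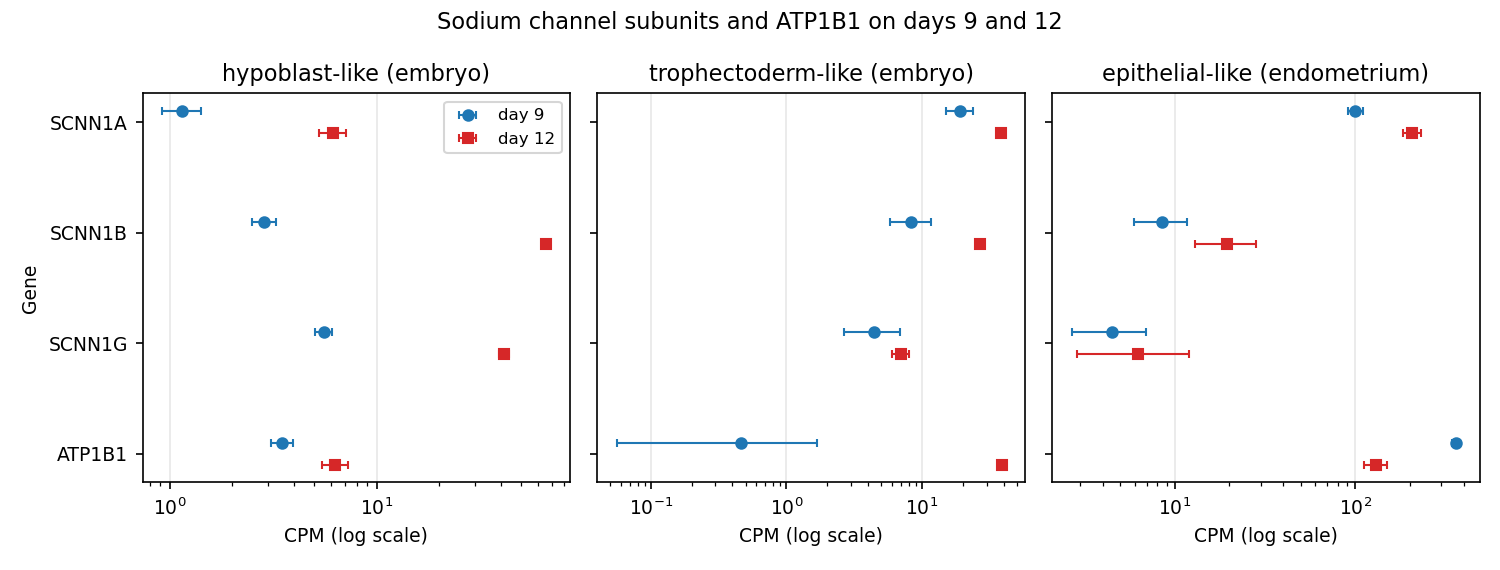
CPM (log scale) of the 3 epithelial sodium channel subunits and of ATP1B1 in hypoblast-like, trophectoderm-like and endometrial epithelial-like cells on day 9 (blue circles) and day 12 (red squares), with the 95% Poisson interval of the count. The 3 subunits are higher on day 12 in hypoblast-like cells, ATP1B1 in trophectoderm-like cells, and ATP1B1 is lower in the epithelium.

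CFTR, the chloride and bicarbonate channel of secretory epithelia (ENSSSCG00000016626, chromosome 18, 28627717 to 28818209), was sparse. Epithelial-like cells held 49 UMIs on day 9, or 11.5 CPM (8.52 to 15.2), and 2 on day 12, or 1.40 CPM (0.169 to 5.04), 8.25-fold lower (2.16 to 70.0). The day 9 UMIs lay mostly in the AQP3-high clusters, with 22.8 CPM in cluster 13 and 14.5 CPM in cluster 14 against 5.82 CPM in cluster 12. No CFTR UMI was found in the hypoblast-like or trophectoderm-like cells of either day. The counting interval allows up to 0.0493 CPM in day 9 hypoblast-like cells and up to 0.857 CPM in day 9 trophectoderm-like cells.

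Across the epithelial-like class 8 of the 10 genes reached 10 CPM on a day, and all 8 differed by 2-fold or more. AQP1, FXYD3, SLC12A2 and SCNN1A were higher on day 12 and AQP3, FXYD4, ATP6V1G3 and CFTR lower, where 11.2% of all 8889 genes at that level were higher and 13.8% lower. AQP1 was higher at 3.76 and 12.6 CPM, on 16 and 18 UMIs. All kept endometrial cells held AQP1 at 22.6 CPM on day 9 and at 85.0 CPM on day 12. Among the day 12 epithelial-like clusters of 50 cells or more it was highest in cluster 16, at 27.5 CPM, which also held the stromal markers. The part of free RNA in this AQP1 level was not tested. Among other transport genes of this class, CA2, a cytosolic carbonic anhydrase that supplies bicarbonate and protons, stood at 6.58 and 450 CPM, 68.4-fold higher (46.9 to 104), and the potassium channel gene KCNK1 at 61.5 and 435 CPM, 7.08-fold higher. CA2 was at 603 and 600 CPM in day 12 clusters 14 and 15, the clusters highest in FXYD3 among those of over 50 cells, and at 77.2 CPM in cluster 18.

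In the other endometrial classes fewer of the 10 genes reached 10 CPM. Stromal-like cells had 1 gene higher (FXYD3, at 4.63 and 16.4 CPM) and 2 lower of 5, where 5.77% of genes were higher and 7.23% lower. Blood endothelial-like cells had 1 higher and 1 lower of 4 (3.74% and 6.22%), and macrophage or monocyte-like cells 1 higher and 1 lower of 4 (5.7% and 8.13%). T or NK cell-like cells had 1 higher, AQP1 on 1 and 16 UMIs, and 2 lower of 5 (6.48% and 8.98%). Smooth muscle or pericyte-like cells had 2 higher and 3 lower of 6 (12% and 9.49%), among the lower AQP3 at 24.1 and 2.98 CPM on 14 and 3 UMIs, whose log2 ratio of -2.65 became -4.88 at 2000 UMIs per cell. The B or plasma cell-like class had none of 1 either way (8.51% and 14.1%). FXYD3 was the higher gene in 4 of these 6 classes, at 10.3 to 19.9 CPM on day 12, in a library whose epithelial-like cells held it at 2336 CPM.

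Genes with the most similar pattern were sought over 50 clusters of 50 cells or more, among 7369 genes. The correlations are descriptions, since clusters of 1 library share its depth and free RNA. AQP1 went with ECSCR (Pearson r = 0.93), CD93 and CLEC3B. ATP6V1G3 went with ATOX1 (0.84), LMO1 and KRT18. FXYD3 went with TRPV5 (0.85), an epithelial calcium channel gene, BARX2 and CDH16. FXYD4 went with ATP5MC1 (0.92) and UQCRQ, both of mitochondrial respiration, and DCTPP1. SLC26A3 went with C1QL4 (0.94), LAMA1 and SGPP2, AQP5 with HAMP (0.87) and FETUB after 1 gene without a symbol, SLC12A2 with EMP1 (0.80) and B4GALT5, SCNN1A with PLS1 (0.91), TSPAN1 and CLDN8, and CFTR with TMEM63C (0.92) and THEM5. AQP3 had the loosest match, with CPN1 at 0.71 and FAM124A at 0.69, after 1 gene without a symbol at 0.72.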

How the data were processed

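Single-cell RNA was measured in 4 10x Genomics libraries, 1 per group. The authors deposited raw UMI counts per gene and barcode, aligned to Sscrofa11.1 with Cell Ranger 6.1.2 per the submitters' processing notes. Per the file headers the day 9 embryo table came from Cell Ranger 4, and it held 657829 barcodes. From those deposited counts, cells with 1000 UMIs, 500 genes and at most 20% mitochondrial UMIs were kept, and in the day 9 embryo also those above a called limit of 2759 UMIs. Scrublet called 1, 93, 0 and 0 doublets, so it worked in at most 1 library and doublets otherwise remain.

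Each library was clustered with scanpy 1.11.5 (2000 variable genes without the 10 genes and the transport lists, 30 components, 15 neighbours, Leiden resolution 0.6), and epithelial clusters were clustered again alone. Names needed at least 3 high markers. UMIs were summed per class, levels carry exact Poisson and ratios exact binomial 95% intervals (scipy 1.17.1), and log2 ratios add 1 CPM. A difference was counted at 2-fold with 10 CPM on a day. A bound against 0 uses 3 counts for the class. Intervals cover counting error only, and no test was possible with 1 library per group. Only the intervals were tested on simulated data, drawn with the same Poisson counting error that they assume. Clustering, naming, thinning and co-detection were not tested in that way.

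The members and lists were chosen with earlier results of these data known. The naming rule, the epithelial re-clustering, the dropping of a neutrophil list and the co-detection pairs shown were settled after values were seen. Genes named were all 10 members, up to 4 others per list and class with the largest ratio at 20 CPM, and the 3 most correlated genes of each member. Other subunits, regulators and ionocyte markers named were chosen after their values were seen. Alternatives covered scaling, filters, added CPM, depth, resolution, joint clustering, variable genes and doublets. The planned comparison of protein sequences was not run, and some genes that this rule names are not reported here.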

Additional observations from a re-analysis of the deposited data

Results flagged for a closer look

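SLC12A2 had opposite day ratios in embryo and endometrium: the log2 ratio was -1.40 in trophectoderm-like cells and -2.83 in hypoblast-like cells, against 2.16 in epithelial-like cells. ATP6V1G3 also had opposite signs, at 1.59 in hypoblast-like and -2.71 in epithelial-like cells. These differences between classes were not tested, since each group was 1 library.

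FXYD3 stood at 1470 CPM in cluster 11 of the day 12 embryo, 20 cells that received no name and enter no comparison. The leading genes of that cluster include S100A2, SPINK9 and CDSN.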

How the results depend on the processing

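No paired analysis was possible because each group was 1 library and the labels carry no replicate numbers. Over 45 day ratios of the 10 genes and 399 alternatives, 370 stayed within the counting error and 29 moved. ATP6V1G3 in trophectoderm-like cells, with a log2 ratio of -0.003, moved to either side under different settings. The cause of each move was not tested unless the setting itself changes which genes are counted.

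With 50 CPM required on a day, the number of members higher became 0 in hypoblast-like, T or NK cell-like, blood endothelial-like, macrophage or monocyte-like and stromal-like cells and 1 in smooth muscle or pericyte-like cells. The number lower became 1 in trophectoderm-like cells and 0 in T or NK cell-like, blood endothelial-like, macrophage or monocyte-like, smooth muscle or pericyte-like and stromal-like cells. With no minimum, 2 were higher in trophectoderm-like and in B or plasma cell-like cells, and the number lower was 2 in B or plasma cell-like, 4 in T or NK cell-like, 3 in blood endothelial-like, 3 in macrophage or monocyte-like and 5 in stromal-like cells. In epithelial-like cells AQP1 (higher) and CFTR (lower) left the count at 50 CPM, since their highest levels were 12.6 and 11.5 CPM. With 10 CPM added, 2 were higher in epithelial-like cells and 0 in blood endothelial-like, macrophage or monocyte-like and stromal-like cells. In that setting 1 was lower in trophectoderm-like cells, and CFTR was no longer counted as lower in epithelial-like cells. In trophectoderm-like cells 1 was higher under median of ratios scaling, 2000 UMIs per cell, day 9 barcodes at 1000 UMIs, resolution 1, joint clustering, and without day 12 cluster 3. At 2000 UMIs, 1 was higher in B or plasma cell-like and 0 in macrophage or monocyte-like cells, and joint clustering gave 2 lower in blood endothelial-like cells. The share of all genes under each of these settings is not given here. These counts therefore show only how the number of members moves, and are not read against a background.

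Median of ratios scaling moved log2 ratios to -1.15 (FXYD4) and -2.67 (SLC12A2) in hypoblast-like cells and to -1.46 (FXYD4) and 0.29 (ATP6V1G3) in trophectoderm-like cells. FXYD4 in hypoblast-like cells was -1.34 by the mean over cells and -1.28 at 10% mitochondrial UMIs. In trophectoderm-like cells FXYD4 was -1.86 with day 9 barcodes at 1000 UMIs, -1.90 under joint clustering and -1.82 without day 12 cluster 3, and ATP6V1G3 was 0.22 by the mean over cells, 0.23 with day 9 barcodes at 1000 UMIs and -0.24 without cluster 3. The mean over cells gave 0.38 for AQP1 in blood endothelial-like cells and, in epithelial-like cells, 4.10 for FXYD3 and -2.16 for ATP6V1G3. FXYD3 there was 4.27 at resolution 1 and 4.29 with the members among the variable genes, and ATP6V1G3 was -4.83 at 2000 UMIs. The 4 alternatives that leave out a cluster were chosen after seeing the data.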

Other observations

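Clusters without a name also held the 10 genes. Cluster 9 of the day 9 embryo (98 cells) stood at 193 CPM for ATP6V1G3, 1734 CPM for FXYD4 and 208 CPM for SLC12A2. Cluster 7 of the day 9 embryo (376 cells) held FXYD4 at 2796 CPM, the highest level of any cluster in the 4 libraries. Cluster 5 of the day 12 embryo (526 cells) held FXYD4 at 1014 CPM, AQP5 at 46.9 CPM and ATP6V1G3 at 85.8 CPM. These clusters also held markers of named classes. Summed hypoblast markers stood at 37728 CPM in day 12 cluster 5, and at 18351 and 19468 CPM in day 9 clusters 9 and 7. Summed trophectoderm markers stood at 9490, 15762 and 5602 CPM in the same order.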
